A study of Mus musculus with 2 samples.

Results

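Contractile smooth muscle cells of the mouse colon were examined in 2 droplet single-cell RNA libraries from wild-type C57BL/6 mice. One library was made after Δ9-tetrahydrocannabinol (THC, the main psychoactive compound of cannabis) at 10 mg/kg, and the other after vehicle. Colons were stripped of epithelium with EDTA, digested with collagenase D, DNAse and Dispase, enriched for lamina propria on Percoll, and loaded with a 10x Genomics 5′ kit. How many mice each library holds, their age and sex, and how often THC was given is not stated in the labels. Members were chosen by measured UMI counts. A cell barcode was taken as a contractile smooth muscle cell when it held at least 1000 unique molecular identifiers (UMIs, each standing for 1 captured RNA molecule), at least 200 genes and under 10% mitochondrial UMIs. It also needed at least 10 UMIs of Actg2, Des, Myh11 and Cnn1 together and at least 5 of Actg2 and Des. At most 1 UMI of Epcam, Ptprc and Pecam1 (epithelial, immune and endothelial markers) and under 50 UMIs of the immunoglobulin gene Igkc were allowed. These limits gave 124 cells among 1026 barcodes that passed the filters on depth and mitochondrial share. In the THC library they were 57 of 396 barcodes, or 14.4% (exact Clopper-Pearson 95% interval 11.1 to 18.2%). The vehicle library gave 67 of 630, or 10.6% (8.34 to 13.3%). No barcode sequence was shared between the libraries.

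Smooth muscle of the gut wall shortens when calcium rises and myosin light chain kinase phosphorylates the myosin light chain, which lets smooth muscle myosin pull on actin filaments. Myosin phosphatase ends the contraction. In the colon such cells form the outer muscle coats, the thin muscularis mucosae and the walls of blood vessels, and gamma enteric actin (Actg2) marks visceral muscle more than vascular muscle. Serum response factor (Srf), with its partner myocardin (Myocd), switches on many contractile genes through a short DNA element named the CArG box.

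The CArG box is shown here because it is the element through which the contractile genes are known to be read together. The promoter sequences came from RefSeq (mouse build GRCm38.p6), and the motif was searched as CC, then 6 bases that are each A or T, then GG, within 250 bases before an annotated start. Read on the opposite strand the pattern is the same, so 1 search covers both strands, and no other motif was searched. Of 57 genes in the 4 lists of thin filament, myosin motor, filament anchor and adhesion genes, 47 had a promoter sequence and 6 (12.8%) held a match. Of the 15 immediate early genes with a promoter sequence, 2 (13.3%) held one. The share was 1.62% over all 27025 genes with a promoter sequence, and 2.16% over the 3245 of them that were measured in these cells. The genes were Myl9 (regulatory myosin light chain, chr2:156775248-156775367, plus strand), Myl6 (essential myosin light chain, chr10:128493010-128493129, minus strand), Vcl (vinculin, chr14:20929148-20929267, plus strand), Ldb3 (a Z-line protein, chr14:34588682-34588801, minus strand), Fhl1 (a LIM-domain protein, chrX:56779526-56779645, plus strand) and Dmd (dystrophin, chrX:82948717-82948836, plus strand). Srf itself (chr17:46556170-46556289, minus strand) held 2 matches. Windows of 120 bases are printed 5′ to 3′ along the gene's strand, with the matches in capitals.
Myl9: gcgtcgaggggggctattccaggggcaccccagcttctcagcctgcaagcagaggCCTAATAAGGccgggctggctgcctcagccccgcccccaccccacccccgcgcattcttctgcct
Myl6: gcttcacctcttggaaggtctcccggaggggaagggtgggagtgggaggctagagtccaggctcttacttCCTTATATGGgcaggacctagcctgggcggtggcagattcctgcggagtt
Vcl: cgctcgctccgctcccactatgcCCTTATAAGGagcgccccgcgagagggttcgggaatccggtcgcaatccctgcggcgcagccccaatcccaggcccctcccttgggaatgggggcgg
Ldb3: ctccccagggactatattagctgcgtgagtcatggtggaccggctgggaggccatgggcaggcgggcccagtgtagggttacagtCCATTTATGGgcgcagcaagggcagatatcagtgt
Fhl1: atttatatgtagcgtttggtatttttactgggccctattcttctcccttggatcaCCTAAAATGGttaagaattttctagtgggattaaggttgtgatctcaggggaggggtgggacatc
Dmd: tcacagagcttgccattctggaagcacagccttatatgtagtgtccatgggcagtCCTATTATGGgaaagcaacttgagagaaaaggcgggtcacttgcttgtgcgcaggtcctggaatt
Srf: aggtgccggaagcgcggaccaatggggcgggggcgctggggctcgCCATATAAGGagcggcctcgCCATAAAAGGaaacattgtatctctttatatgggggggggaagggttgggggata
The match began 50 bases before the annotated start in Myl6, 161 in Myl9 and 227 in Vcl. For Fhl1, unlike the other genes printed, the end of the promoter sequence matched no transcript, so its place before a start is uncertain. Acta2, Des, Cnn1, Synm, Mylk, Tpm1 and Tpm2 had no exact match in the window searched, which says only that these letters are not there. A match is a description of the letters and was not tested as a binding site.

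The cells were deep for these libraries, with a median of 12937 UMIs in the THC library (range 3552 to 33612) and 11717 in the vehicle library (2419 to 21596). Other barcodes had medians of 8130 and 6702. Their mitochondrial share was also higher, with medians of 6.25% and 6.29% against 3.99% and 3.54% in the other barcodes. The limit of 10% left out 21 THC and 21 vehicle barcodes that met all other limits. Of these, 7 THC and 18 vehicle barcodes held 10 to 20%, so a limit of 20% would add cells unevenly. The deposited libraries totalled 7080022 and 7786409 UMIs. The THC matrix held 737280 barcodes, empty ones included, while the vehicle matrix held 973 of which the shallowest had 502 UMIs, so the shares above are over barcodes that had passed different steps. Few barcodes lay near the limit on contractile UMIs. One member in each library had 10 to 14 of them, 4 THC and 6 vehicle barcodes outside had 5 to 9. The median member had 130 (THC) or 144 (vehicle).

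The label was checked against markers. The 4 genes of the rule describe how the cells were chosen and are no finding. Genes that the rule did not use were also higher in the members than in the comparison classes. Fibroblasts were taken only with few UMIs of the 4 genes of the rule, so part of these gaps was set by that choice. All levels are counts per 1000000 UMIs of the cells named (CPM), are not scaled by gene length, and are compared between cells and not between genes. Tagln (transgelin, an actin-binding protein of smooth muscle) stood at 26155 CPM in the members and at 255 in fibroblasts (barcodes with fibroblast collagens and decorin), the highest of 4 comparison classes. Acta2 (smooth muscle alpha actin) stood at 20426 CPM against 333, Myl9 at 11236 against 201 and Mylk (myosin light chain kinase) at 6689 against 129, again with fibroblasts as the next class. The 8 genes with the highest ratio of member level to the highest class were, in order, Actg2, Cnn1, Myh11, Des, Tagln, Acta2, Myl9 and Mylk, and Lmod1 came close behind. Class levels below 3 UMIs were set to 3 UMIs for this order. Lmod1 (leiomodin, which starts actin filaments) stood at 468 CPM, with 1 UMI in all fibroblasts and none in the other 3 classes.

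Marker lists of other cell types were low, which the choice of cells partly set in advance. The rule allowed at most 1 UMI of Epcam, Ptprc and Pecam1, which are in the epithelial, immune and endothelial lists. Those 3 classes were in turn chosen by these genes, with Cdh5 added for endothelial cells. For these lists the sums are a description and no check. Summed over the members, 10 epithelial markers reached 17.7 CPM (THC) and 35.2 CPM (vehicle), against 24161 CPM in the epithelial class. The 8 immune markers reached 17.7 and 18.3 CPM against 32690 CPM in immune cells, and the 6 endothelial markers 6.81 and 3.91 CPM against 6219 CPM in endothelial cells. Glial markers summed to 23.2 and 19.6 CPM, and neuronal markers to 0 and 2.61 CPM. Fibroblast markers were not absent, at 1456 and 1255 CPM against 21798 CPM in fibroblasts, and neither were those of pericytes and vascular muscle, at 2884 and 2423 CPM against 448 CPM in the endothelial class. The fibroblast class was chosen by Dcn, Col1a1, Col1a2 and Lum, which are in the fibroblast list. Its level is therefore a description and no check either.

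The members were not uniform, and the label holds for them in different degrees. Clustering of both libraries together gave 7 clusters, which are numbered here by falling Actg2 level and described by their leading genes without a test, since the same genes made the clusters. Each cluster held cells of both libraries. Actg2 fell from 27123 CPM in cluster 1 through 23000.5 in cluster 2 and 9439.8 in cluster 3 to 4057, 3183 and 3167 CPM in clusters 4, 5 and 6, and 107 CPM in cluster 7. Acta2 varied far less, from 12587 CPM in cluster 5 to 26199.8 in cluster 2. Des, the muscle intermediate filament desmin, stood at 12306 and 12469 CPM in clusters 1 and 2, at 3993 in cluster 3, and between 1007 and 2504 CPM in the other clusters. Vim, the intermediate filament of mesenchymal cells, ran the other way, from 19.7 CPM in cluster 1 to 4367 in cluster 4 and 4627 in cluster 7.

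**Figure D1:**
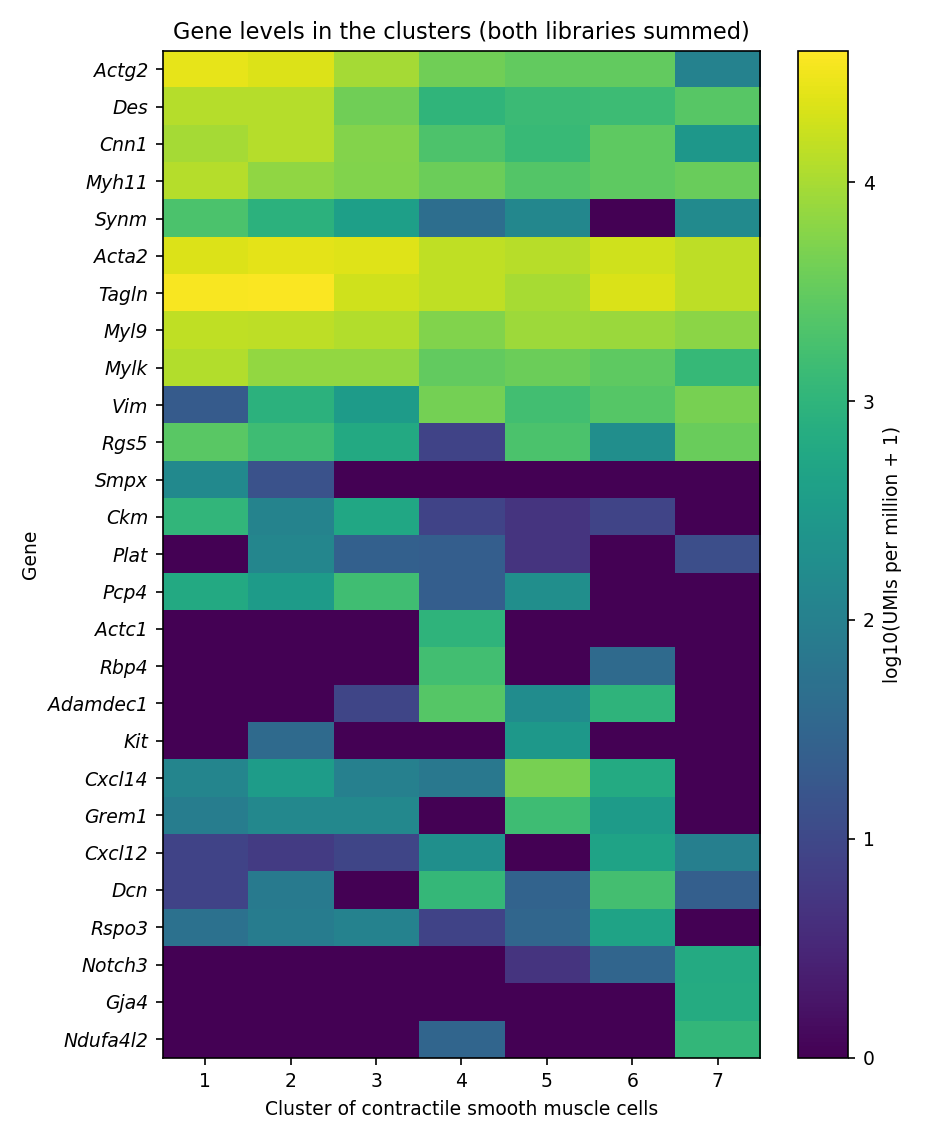
Levels of contractile genes and of leading genes in the 7 clusters of contractile smooth muscle cells, as log10 of CPM plus 1, summed over both libraries. Actg2 goes from 27123 CPM in cluster 1 to 107 in cluster 7, while Acta2 stays between 12587 and 26199.8 in every cluster.

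Cluster 1 held 29 cells. Ckm (muscle creatine kinase, which buffers ATP) stood at 1074 CPM against 101 in the other members, and Smpx (a small protein of muscle) at 153 against 4.57. Synm, the desmin partner synemin, stood at 1966 CPM there and at 919 in cluster 2, and at 394 CPM or less in the other clusters. Ptgs2 (cyclooxygenase-2, which makes prostaglandins) stood at 165 CPM against 7.31, with 43 THC and 24 vehicle UMIs. Cluster 2, with 20 cells, was led by Plat (tissue plasminogen activator, 126 against 7.09 CPM). Pamr1, Smoc2 and Gdf5 were among its other leading genes, and it held Fxyd6 (a regulator of the sodium pump) at 548 CPM against 78.9. Cluster 3, with 7 cells, was led by Dpp10 and held Pcp4 at 1528 CPM against 308, and Kcnma1 (the large-conductance potassium channel) at 230 against 47.2. With 7 cells, of which 2 came from the THC library, its levels rest on few cells.

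Cluster 4, with 20 cells, was the one place where Actc1 (cardiac alpha actin) was found, at 976 CPM, with 30 THC and 99 vehicle UMIs and none in the other members. It also held Rbp4 (retinol-binding protein) at 1589 against 3.66 CPM, F2r (a thrombin receptor) at 1067 against 5.85, and Adamdec1 (a protease of lamina propria fibroblasts) at 2445 CPM. Of 9 fibroblast markers, 7 were at least 2-fold above the other members there, and their sum was 6252 CPM. Pdgfra, the defining fibroblast receptor, gave 13 UMIs in cluster 4 and none in the other 6 clusters. Cluster 4 was also shallow, with a median of 5733.5 UMIs per cell against 14367 in cluster 1. Reads of the actin genes Acta1, Acta2, Actc1 and Actg2 share long stretches of sequence, so their counts are uncertain where the authors' counting could split them.

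In cluster 5, with 20 cells, Cxcl14 (a chemokine) stood at 4481 CPM against 231, Grem1 at 1479 against 118 and Nog (noggin) at 387 against 12.03, the last 2 being antagonists of bone morphogenetic proteins (BMPs). Kit and Ano1, which mark the pacemaker interstitial cells of Cajal, stood at 280 and 580 CPM there, and all 3 markers of that list were above the other members by at least 2-fold. Cluster 5 nevertheless held Acta2 at 12587 CPM and Myh11 (smooth muscle myosin heavy chain) at 2363. Cluster 6, with 15 cells, was led by Shisa3, Cxcl12 (473 CPM against 29.2), Ccl11 and Lum. Dcn (decorin, a matrix proteoglycan) reached 1671 CPM against 139 and Rspo3 (a Wnt amplifier that supports crypt stem cells) 473 against 54.1. Of 9 fibroblast markers, 3 were at least 2-fold above the other members.

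The summed level of Actg2, Des, Myh11, Cnn1 and Synm was lowest in cluster 7, at 6642 CPM against 8311 in cluster 5, the next lowest. Its 13 cells entered mainly through Des and Myh11, and 11 of them held no Actg2 UMI, which are all the members without one. Actg2 summed to 9 UMIs, all from vehicle cells, and Cnn1 to 23, also all vehicle. Des stood at 2504 CPM and Myh11 at 3601, both above their levels in clusters 5 and 6. Rasd1 (a small GTPase) stood at 2743 CPM against 4.94 in the other members, Ndufa4l2 at 1097 against 2.83, Notch3 (the Notch receptor of vessel-wall muscle) at 644 against 3.53, and Gja4 (connexin 37) at 680 with no UMI in any other member. Of 12 markers of pericytes and vascular muscle, 8 were at least 2-fold above the other members. Rgs5, the marker of that list with the highest count, was not particular to cluster 7, since it stood at 3589 CPM there and also at 2612 CPM in cluster 1 and 1956 in cluster 5.

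Correlations across single cells are given as a description, because the cells of a library share it, both values share each cell's depth, and Actg2 is a gene of the rule that chose the cells. On the scale log2(CPM + 50), Actg2 and Acta2 had a Pearson r of 0.63 over the 57 THC cells and 0.48 over the 67 vehicle cells. Actg2 and Cnn1 (calponin, which binds actin and tropomyosin), both genes of the rule, had 0.95 and 0.88. Actg2 and Vim had -0.67 and -0.65. Actg2 and Rgs5 had 0.01 and 0.09. In the THC library 5 cells lay below 1000 CPM of Actg2, 24 between 1000 and 5000, 6 between 5000 and 15000, and 22 above. The vehicle library had 8, 25, 16 and 18.

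**Figure D2:**
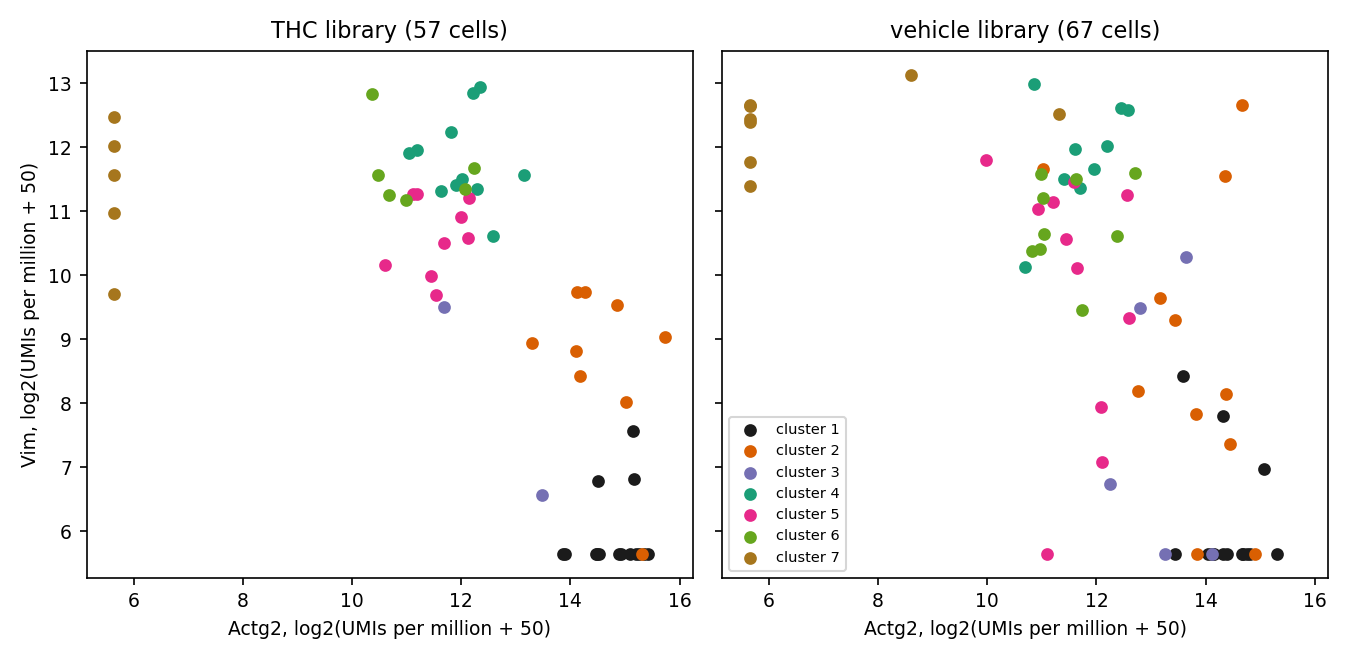
Actg2 (x axis) against Vim (y axis) in each contractile smooth muscle cell, both as log2 of CPM plus 50, coloured by cluster, with the 57 THC cells left and the 67 vehicle cells right. Cells of cluster 1 lie at high Actg2 and low Vim, and the points in the bottom row hold no Vim UMI and partly cover each other. The 11 cells of cluster 7 without an Actg2 UMI lie at the left edge.

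The study asked how THC changes colon cells. With 1 library for each condition there are no replicates, so no difference below has a test. Each ratio is given with a 95% interval for counting error alone (exact, conditional on the summed UMIs), which does not cover differences between mice or between libraries. A gene counts as measured from 50 UMIs summed over all members, and as past the fold limit when its CPM differed at least 1.5-fold. Of 4104 measured genes 128 (3.12%) were at least 1.5-fold higher in the THC library and 260 (6.34%) lower, 9.45% in all. Of all measured genes 58.0% lay below a ratio of 1 and 42.0% above, and the median log2 ratio was -0.06. With TMM scaling of the summed counts, 209 were higher and 160 lower, so that lower genes outnumber higher ones under 1 scaling and not under the other. Counts of the lists below are to be read beside the shares over all measured genes. These were 3.12% higher and 6.34% lower past the limit, and 42.0% above and 58.0% below a ratio of 1. Directions of the lists below hold for scaling by total UMIs, and where TMM turns the sign of a list's median that is said.

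The thin filament and its regulators were listed with 10 genes, all measured. One of the 10, Actg2, was past the fold limit, beside 3.12% of all measured genes on the higher side and 6.34% on the lower. Actg2 and Cnn1 were among the genes that chose the cells, so nothing is read from that count. Of the 10 genes, 7 were above a ratio of 1, and their median log2 ratio was 0.09 beside -0.06 for all genes. It was -0.23 with a mitochondrial limit of 5%. Actg2 summed to 13350 UMIs (18194 CPM) in the 57 THC cells and to 9130 UMIs (11913 CPM) in the 67 vehicle cells, a log2 ratio of 0.61 (0.57 to 0.65). By cell, it ran from 0 to 54772 CPM (median 4970) over THC cells, and from 0 to 40520 CPM (median 5266) over vehicle cells. The ranges overlap and the median THC cell was not the higher one. The upper quartiles were 23285 and 17279 CPM. Acta2, the other actin, summed to 15152 and 15490 UMIs, a log2 ratio of 0.03 (-0.00 to 0.06). Cnn1 summed to 5674 and 4418 UMIs (0.42, 0.37 to 0.48), and Tagln to 20552 and 18684 (0.20, 0.17 to 0.23). The Tagln ratio was -0.37 with a mitochondrial limit of 5% and -0.03 with each cell thinned to 1000 UMIs. Cald1 (caldesmon, which restrains actin sliding) was on the lower side, with 1385 and 1694 UMIs (-0.23, -0.33 to -0.12). Over the alternatives described at the end, the Cald1 ratio ran from -0.36 to 0.22.

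By cluster, the Actg2 ratio was farthest above 1 in the 2 clusters richest in Actg2. That is a description only, since Actg2 is a gene of the rule. Clusters 1 and 2 gave 56.9% of the members' UMIs in the THC library and 47.0% in the vehicle library, and 91.3% and 80.8% of the Actg2 UMIs. Within cluster 1 the log2 ratio of Actg2 was 0.34 (0.28 to 0.39) and within cluster 2 it was 0.70 (0.64 to 0.76). In cluster 4 it was 0.23 (-0.02 to 0.48), in cluster 5 0.02 (-0.18 to 0.22), in cluster 3 -0.30 (-0.49 to -0.10) and in cluster 6 -0.27 (-0.57 to 0.03). Weighting the clusters alike in both libraries, Actg2 had a ratio of 0.42, under the fold limit. Des at 0.33 and Cnn1 at 0.29 were under that limit with and without this weighting. Tagln was at 0.10 and Myh11 at 0.003 with it. By cluster, Cnn1 and Tagln were each higher in 2 clusters and lower in 5. Myh11 and Acta2 were each higher in 3 and lower in 4, and Des was higher in 4 and lower in 3. The summed ratios of these genes therefore do not describe every cluster. One THC cell, of cluster 2, held 13.8% of the THC Actg2 UMIs, and 1841 of the 5358 that cluster 2 gave in that library. Leaving out each library's richest cell gave an Actg2 ratio of 0.53 over all members. With a mitochondrial limit of 5%, which keeps 23 THC and 20 vehicle cells and in each library 1 cell of clusters 1 to 3, it was 0.08 and that of Cnn1 was -0.53.

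**Figure D3:**
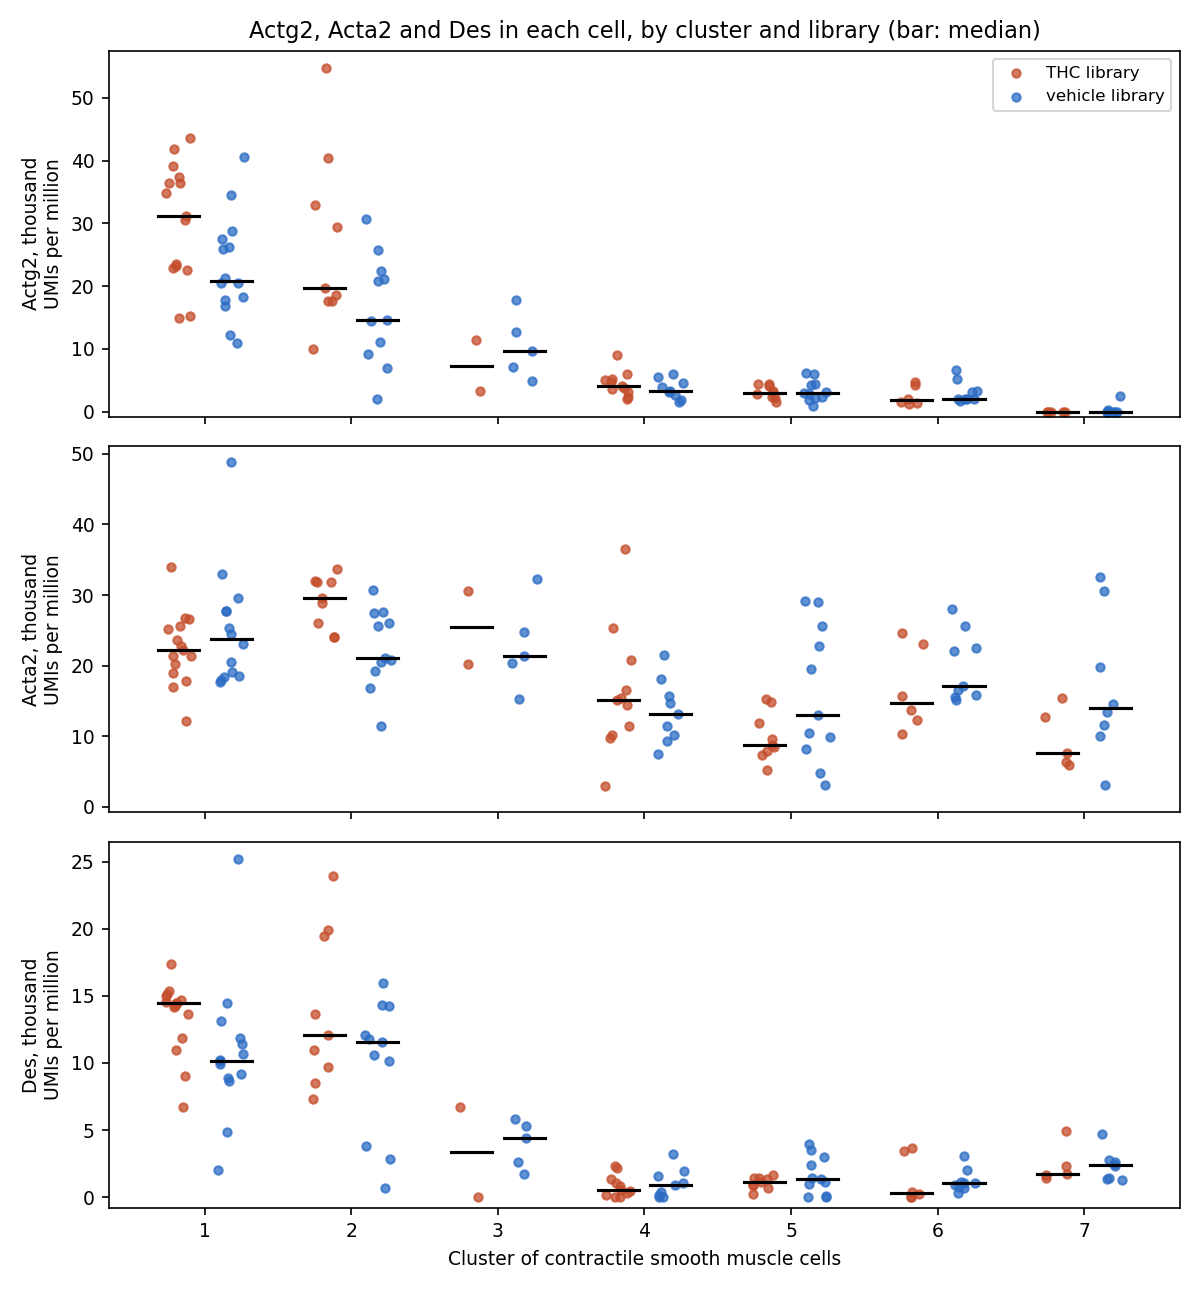
Actg2, Acta2 and Des in each contractile smooth muscle cell, in CPM (axis in units of 1000), by cluster (x axis) and library (colour), with a bar at the median of the cells. In cluster 1 the median Actg2 level is 31256 CPM in the THC library and 20898 in the vehicle library, while it is 2918 and 3042 in cluster 5 and 0 in both libraries in cluster 7.

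Of the myosin motor genes, 7 of 8 were measured. Of these, 4 were above and 3 below a ratio of 1 and none passed the fold limit, with a median of 0.06. Myh11, a gene of the rule, summed to 5095 and 4800 UMIs (0.15, 0.09 to 0.21). It turned to -0.13 with a mitochondrial limit of 20%, -0.48 with 5% and -0.05 with thinning. Myl9 summed to 8720 and 8136 (0.16, 0.12 to 0.21). Mylk, the kinase that starts contraction, gave 4836 and 5198 UMIs (-0.04, -0.10 to 0.02).

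The filaments and dense bodies that anchor actin had 18 genes, all measured, of which 12 were above a ratio of 1 and none past the fold limit (median 0.13, but -0.19 with a mitochondrial limit of 5% and -0.03 with thinning). Des gave 6324 and 4674 UMIs (0.50, 0.44 to 0.55), and Synm 660 and 581 (0.25, 0.08 to 0.41). By cluster, Synm was higher in 2 and lower in 4, with a ratio of -0.06 (-0.27 to 0.14) in cluster 1. Over the alternatives the Synm ratio ran from -0.61 to 0.48. Vim was on the lower side, at 860 and 1202 UMIs (-0.42, -0.55 to -0.29). So were Fhl1 at 602 and 832 (-0.40, -0.56 to -0.25) and Palld (palladin) at 573 and 743 (-0.31, -0.47 to -0.15). The Vim ratio was -0.21 without cluster 7 and -0.29 with clusters weighted alike. It was -0.19 with thinning and also with a mitochondrial limit of 5%. Adhesion and the dystrophin complex had 19 measured genes of 21, with 7 above and 12 below a ratio of 1, where 58.0% of all measured genes lay below, and a median of -0.03, which TMM scaling turned to 0.07. One was past the fold limit on each side. Itga5, the fibronectin receptor subunit, gave 146 and 68 UMIs (1.17, 0.74 to 1.602), and Sgcb (beta-sarcoglycan) 21 and 41 (-0.90, -1.74 to -0.11). Dmd gave 90 and 116 UMIs (-0.30, -0.72 to 0.11) and Vcl 215 and 269 (-0.26, -0.53 to 0.00).

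Calcium and potassium handling had 18 measured genes of 27, 5 above and 13 below a ratio of 1 (9 and 9 with TMM scaling), where 58.0% of all measured genes lay below, with a median of -0.15. The median was 0.25 with a mitochondrial limit of 5% and 0.29 with thinning. Cacnb2, a calcium channel subunit, was the 1 gene past the fold limit, with 22 and 37 UMIs (-0.69, -1.52 to 0.11), an interval that includes 0. Cacna1c, the pore of the L-type calcium channel, gave 49 and 64 UMIs (-0.32, -0.89 to 0.24). Kcnj8 and Abcc9, which together form the ATP-sensitive potassium channel of smooth muscle, gave 212 and 178 UMIs (0.31, 0.02 to 0.61) and 135 and 145 (-0.04, -0.39 to 0.31). Pln (phospholamban, the brake of the calcium pump) gave 63 and 91 (-0.47, -0.95 to 0.01).

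Receptors for transmitters and hormones were sparse, and 8 of 28 were measured, with a median of 0.11 that was -0.40 with a mitochondrial limit of 5%. Ednrb, an endothelin receptor, was the 1 past the fold limit, with 112 and 62 UMIs (0.92, 0.46 to 1.39), seen in 34 of 57 THC cells and 27 of 67 vehicle cells. Ednra, the other endothelin receptor, gave 24 and 14 UMIs and was not measured by the limit of 50. Chrm2, the main muscarinic receptor in number on gut muscle, gave 66 and 83 UMIs (-0.27, -0.76 to 0.22), while Chrm3, which triggers contraction to acetylcholine, gave 1 and 5. Chrm2 was at 170 CPM in cluster 1, 124 in cluster 2 and 130 in cluster 5, and at 0 in clusters 3, 4 and 6. Tacr2, the neurokinin receptor of gut muscle, gave 69 and 65 UMIs (0.15, -0.36 to 0.66) and was at 272 CPM in cluster 5. P2ry14, a receptor for UDP-sugars, gave 44 and 61 UMIs (-0.41, -1.002 to 0.17). P2rx1, an ATP-gated channel, gave 2 and 17 UMIs and was not measured. Of the cGMP and cAMP genes that relax smooth muscle, 8 of 9 were measured and 7 were on the lower side (median -0.24, 5 with TMM scaling), none past the fold limit. The lower side held 58.0% of all measured genes. With a mitochondrial limit of 5% the median was 0.75. Pde5a, which breaks down cGMP, gave 149 and 218 UMIs (-0.49, -0.80 to -0.18), and Gucy1b1, a subunit of the nitric oxide receptor, 80 and 64 (0.38, -0.11 to 0.88).

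Of 17 cannabinoid genes 2 were measured, and 4 gave no UMI in either library. Cnr1, the receptor through which THC acts on nerves, gave 1 UMI in the THC library and 0 in the vehicle library, and Cnr2 gave 0 in both, where 3 UMIs is the limit that a count of 0 allows. Gpr55, Trpv1 and Faah, the enzyme that degrades anandamide, also gave 0. The 2 measured genes were Mgll (monoacylglycerol lipase, which degrades 2-arachidonoylglycerol), with 235 and 335 UMIs (-0.45, -0.70 to -0.20), and Trpv2, with 29 and 40 (-0.40, -1.14 to 0.32).

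Transcription factors had 9 measured genes of 16, with a median of -0.07 that TMM scaling turned to 0.03. Srf gave 74 and 83 UMIs (-0.10, -0.57 to 0.37) and Myocd 46 and 58 (-0.27, -0.86 to 0.31). Klf4, a factor that represses the contractile program, was past the fold limit on the higher side, with 215 and 124 UMIs (0.86, 0.53 to 1.19), and 1 THC cell held 22.8% of its THC UMIs. Mef2d was also past it, with 42 and 27 (0.70, -0.03 to 1.45). Immediate early genes, which many stimuli and tissue dissociation are known to induce, had 14 of 17 measured genes above a ratio of 1 (median 0.23), also with TMM scaling, and none past the limit. Over all measured genes the share above was 42.0%. Klf2 gave 360 and 252 UMIs (0.58, 0.34 to 0.82), Dusp1 629 and 490 (0.42, 0.25 to 0.60) and Fos 2748 and 2614 (0.13, 0.06 to 0.21). All 11 heat shock chaperone and co-chaperone genes were on the lower side (median -0.21), or 10 with TMM scaling or the mean of per-cell CPM. Of all measured genes 58.0% lay below a ratio of 1, and 6.34% were past the limit on that side. The 2 heat shock genes past the limit were Hspa1b with 62 and 164 UMIs (-1.34, -1.79 to -0.91) and Dnaja1 with 130 and 225 (-0.73, -1.05 to -0.41). Hspa1a, a near-identical copy of Hspa1b between which counts can be split, gave 376 and 560 (-0.51, -0.70 to -0.32). By cluster, Hspa1a and Hspa1b were each lower in 6 of 7 clusters and the co-chaperone gene Dnajb1 in 5. All of them were higher in cluster 3. In the fibroblasts of the same libraries Hspa1b had a ratio of -0.87 (-1.16 to -0.58) and Hspa1a of -0.95 (-1.09 to -0.81). The small heat shock proteins of muscle had 4 of 6 genes above a ratio of 1 (median 0.26, but -0.29 with thinning), with Hspb1 at 3756 and 3228 UMIs (0.28, 0.21 to 0.35) and Cryab at 577 and 708 (-0.23, -0.39 to -0.07). The Cryab ratio ran from -0.79 to 0.62 over the alternatives.

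Matrix genes had 23 measured of 27, 15 above a ratio of 1, where 42.0% of all measured genes lay above, with a median of 0.09. Fn1 (fibronectin), the ligand of the receptor that Itga5 forms, gave 611 and 460 UMIs (0.47, 0.30 to 0.65), and Tnc (tenascin C) 181 and 143 (0.40, 0.08 to 0.73). The Tnc ratio ran from -1.66 to 0.50 over the alternatives, so its side is not settled. Lamb1, a laminin chain, was past the fold limit at 65 and 44 UMIs (0.63, 0.05 to 1.21), and Mfap4 on the lower side at 26 and 48 (-0.82, -1.57 to -0.10). Mgp (matrix Gla protein, an inhibitor of calcification) gave 221 and 29 UMIs (2.99, 2.43 to 3.60), but 1 THC cell held 86.9% of the THC UMIs, and leaving out each library's richest cell gave 0.58. Secreted signals had 14 measured of 30 and a median of -0.03, or 0.07 with TMM scaling. Rspo3 gave 44 and 92 UMIs (-1.001, -1.55 to -0.47), Csf1 (the macrophage growth factor) 37 and 16 (1.27, 0.39 to 2.22), Cxcl12 62 and 40 (0.70, 0.10 to 1.31, but 0.41 without the barcodes marked as doublets) and Ptgs2 45 and 30 (0.65, -0.05 to 1.36). Grem1, which leads cluster 5 with others, gave 231 and 291 UMIs (-0.27, -0.53 to -0.02). Of the coupling genes, 3 of 4 were measured and Cdh11 (cadherin 11) was past the limit, at 29 and 51 UMIs (-0.75, -1.46 to -0.07). Energy genes had 5 above and 6 below a ratio of 1 (8 and 3 with TMM scaling) and none past the limit, with Ckb (brain-type creatine kinase) at 2761 and 2975 UMIs (-0.04, -0.12 to 0.03).

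**Figure D4:**
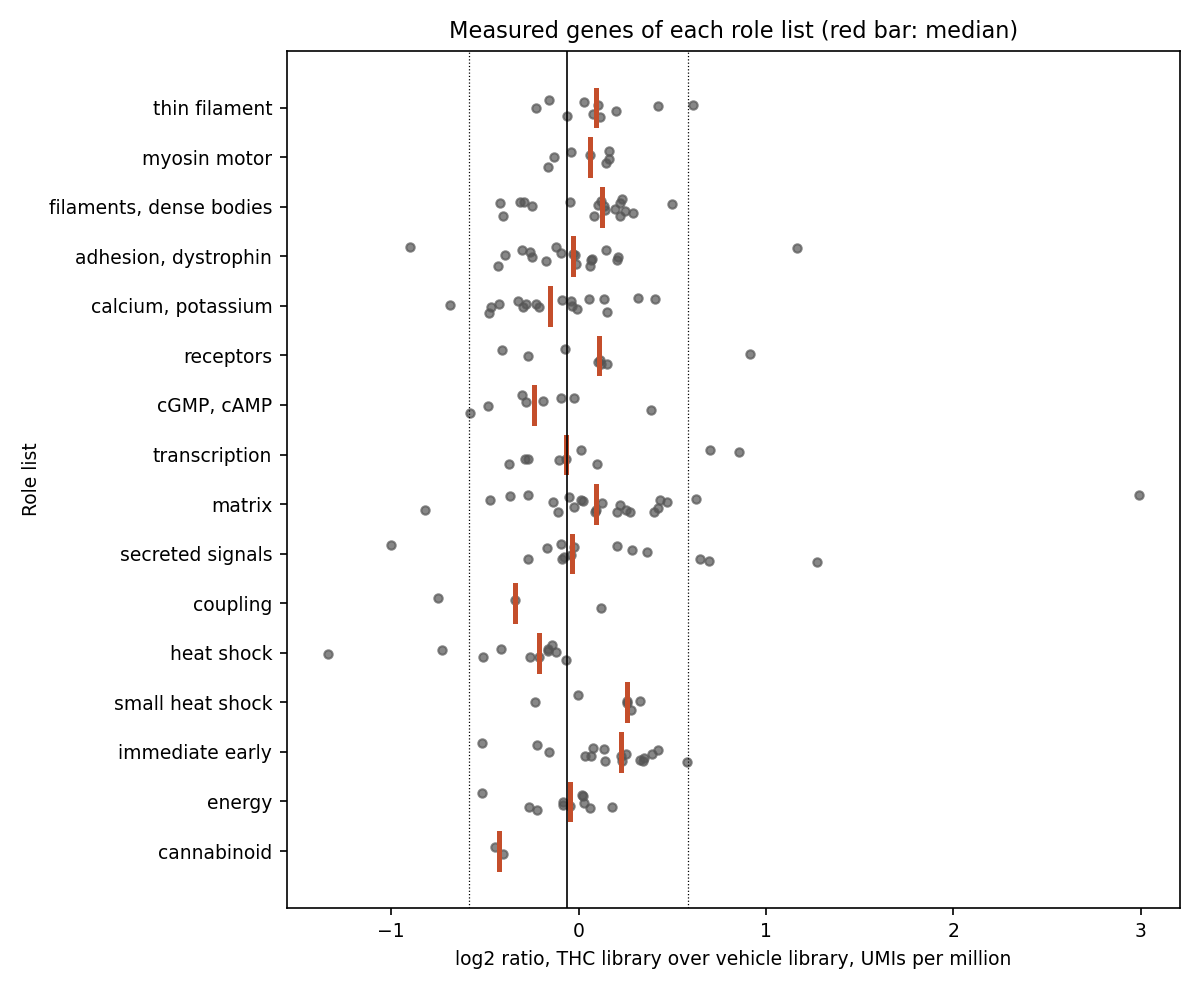
Log2 ratio of THC over vehicle CPM (x axis) for each measured gene of the role lists shown (rows), with a red bar at the list's median, a solid line at the median of all 4104 measured genes (-0.06) and dotted lines at 1.5-fold. The 11 heat shock genes all lie below 0 with this scaling, by total UMIs, and Mgp, at 2.99, is the point farthest right.

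The genes with the ratios farthest from 0, ranked by the interval bound nearest 0 among 3123 genes that the members held at a level not far below other cell types, include several outside these lists. Nr4a2 (an immediate early nuclear receptor) gave 83 and 35 UMIs (1.31, 0.72 to 1.92), but 0.50 with thinning. Igfbp2 (which binds insulin-like growth factors) gave 244 and 124 UMIs (1.04, 0.72 to 1.36), but 0.36 once each library's richest cell is left out. Id2 gave 440 and 275 UMIs (0.74, 0.52 to 0.96), Itga3, the laminin receptor subunit, 81 and 42 (1.01, 0.46 to 1.58), Fam46b 51 and 20 (1.41, 0.64 to 2.24) and Fbn2 (fibrillin 2) 39 and 17 (1.26, 0.41 to 2.18). Itga5, Ednrb, Actg2 and Des completed the 10 highest, of which Actg2 and Des also chose the cells. Fam46b had a UMI in 24 of 57 THC and 13 of 67 vehicle cells and Fbn2 in 17 and 9, so they passed the limit of 25% of a library's cells only through the library where they were higher.

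The 10 lowest held Hspa1b and Rspo3 from the lists. Mdfic gave 16 and 56 UMIs (-1.74, -2.65 to -0.92), Rpain 13 and 41 (-1.59, -2.62 to -0.67), Mmd 31 and 76 (-1.23, -1.88 to -0.61) and Brd7 14 and 37 (-1.34, -2.34 to -0.42). Tpr, a protein of the nuclear pore basket, gave 35 and 80 UMIs (-1.13, -1.75 to -0.54), and Twf1 (twinfilin, which caps actin filaments) 38 and 79 (-0.99, -1.59 to -0.42). Rpain had a UMI in 12 of 57 THC and 34 of 67 vehicle cells and Brd7 in 13 and 27, so they passed the limit of 25% only through the vehicle library. Col23a1, a collagen that leads cluster 3, gave 53 and 113 UMIs (-1.03, -1.53 to -0.55) and was at -0.56 with clusters weighted alike. Id4 gave 165 and 284 UMIs (-0.72, -1.01 to -0.44) and was at -0.31 with that weighting.

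Fibroblasts of the same libraries, 89 THC and 152 vehicle barcodes, give the nearest comparison. Itga5 had a ratio of 1.17 in the muscle cells and of -0.25 in fibroblasts (46 and 91 UMIs), Nr4a2 of 1.31 and -0.69 (76 and 204 UMIs) and Ednrb of 0.92 and -0.20 (58 and 111 UMIs). At these counts the fibroblast ratios of Itga5 and Ednrb lie within counting error of no difference, so their side there is not settled. In the muscle cells Itga5 turned to -0.27 with a mitochondrial limit of 5%. Id2 lay on the same side in both, at 0.74 and 0.55, as did Rspo3 at -1.001 and -1.85, Id4 at -0.72 and -1.07 and Hspa1b. Whether a ratio differs between the 2 cell types was not tested, since each rests on 1 library for each condition.

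**Figure D5:**
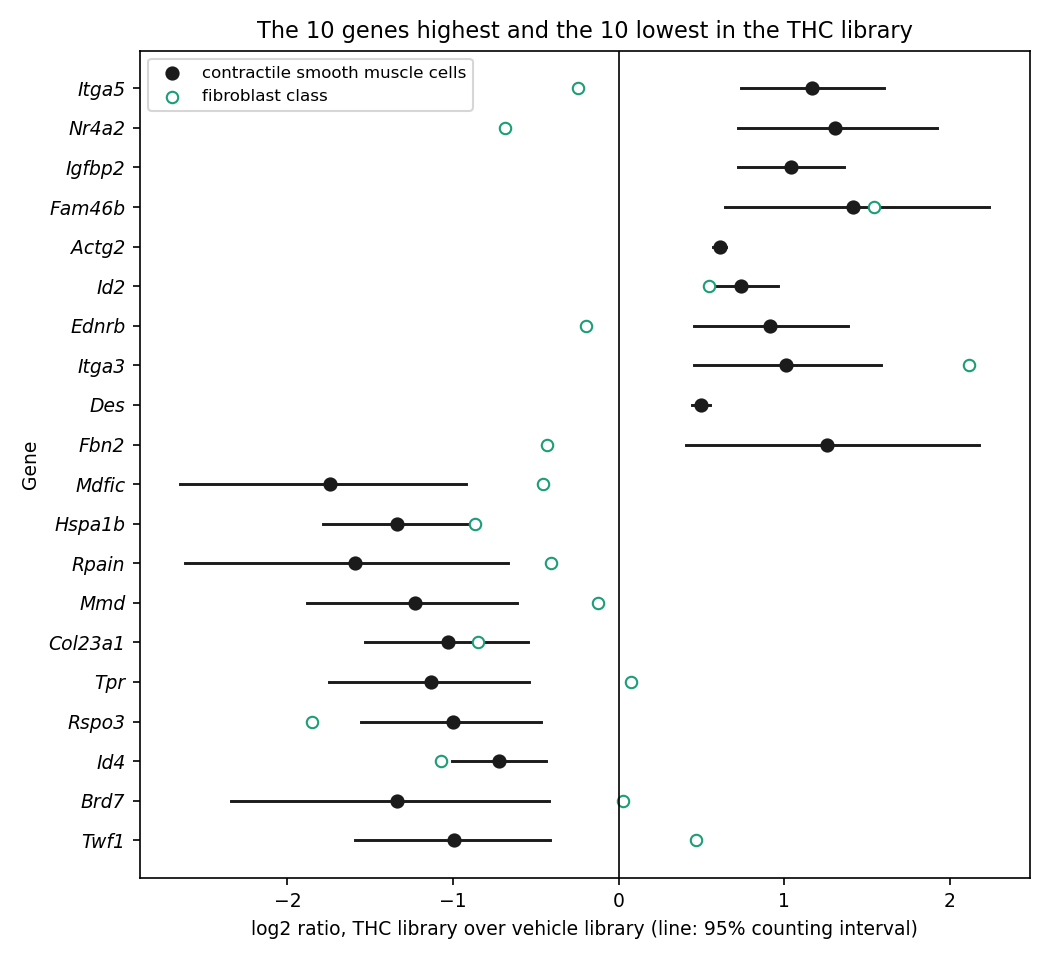
Log2 ratio of THC over vehicle CPM (x axis) for the 10 highest and 10 lowest genes (rows), in contractile smooth muscle cells (black, with the 95% counting interval) and, where fibroblasts gave at least 10 UMIs and the gene did not define the class, in fibroblasts (open green). The points of Itga5, Nr4a2 and Ednrb lie right of 0 in the muscle cells and left of 0 in fibroblasts, whose intervals are not drawn.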

How the data were processed

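A pair of single-cell libraries of mouse colon were used, 1 after THC and 1 after vehicle. The deposited matrices hold raw UMI counts for 31053 genes, which the authors made with Cell Ranger 3.0.2, per the file headers. bcl2fastq and Seurat are named in the submitters' processing notes. Genome build and annotation were among the details not given in the sources used here. Members were chosen by the stated limits. UMIs were summed over the members of each library and scaled to CPM. Intervals are exact and cover counting error only. They were tried on counts simulated with that error alone. Such counts leave out uneven spread between cells, so the trial cannot show how well the intervals hold for these data. The members, the gene lists and the tests were chosen with earlier results of these data known.

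Clusters used log-transformed counts scaled to 10000 per cell, 1000 variable genes, 10 principal components, 10 neighbours and Leiden resolution 0.5 (scanpy 1.11.5). Scrublet marked 1 THC and 1 vehicle barcode as doublets, of which the THC one was a member. They were kept in the main values. At under 0.5% of the barcodes this caller may have missed doublets. Comparison classes were barcodes outside the members that passed the same filters and held markers of 1 class.

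Members of the role lists could all be named. Other named genes needed 50 UMIs over both libraries, a UMI in 25% of the members of at least 1 library (a limit that a gene can pass through the library where it is high) and a member CPM of at least 50% of the highest class. The rank was by the interval bound nearest 0, with 10 genes named each way. Mitochondrial, ribosomal, haemoglobin, immunoglobulin, T cell receptor and sex-linked genes were left out. TMM factors came from edgeR 4.0.16. In THC barcodes of 1 to 50 UMIs, which hold free RNA, the 4 genes of the rule summed to 6388 CPM, against 9.74 CPM in THC epithelial cells. Vehicle barcodes of that depth were not analysed here. A few genes and 1 list are not reported here. Alternatives are described at the end.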

Additional observations from a re-analysis of the deposited data

Results flagged for a closer look

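Actg2, Des, Myh11 and Cnn1 together reached 6388 CPM (5134 of 803659 UMIs) in the 105616 THC barcodes with 1 to 50 UMIs, which no comparison uses. Over the THC barcodes that passed the filters the same sum was 6914 CPM, and over the THC members it was 41490 CPM. In the THC epithelial cells it was 9.74 CPM (21 UMIs). This signal drew attention because it lies in barcodes outside the main measurement and above the limit that a count of 0 allows, which is 3.73 CPM there.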

How the results depend on the processing

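No replicate backs any ratio, and depth limits the sparse genes: the interval of Ldb3, with 34 and 29 UMIs, ran from -0.47 to 1.06. No paired analysis was possible because each condition has 1 library. With a mitochondrial limit of 5% the share of contractile smooth muscle cells was 9.43% (THC) and 5.06% (vehicle). The count of genes at least 1.5-fold higher in the THC library, 128 as reported, was 200 with the mean of per-cell CPM, 209 with TMM scaling, 14 with each cell thinned to 1000 UMIs, 490 with a limit of 20 UMIs over both libraries, 35 with 100 UMIs and 27 at 2-fold. The count of lower genes, 260 as reported, was 71 with a mitochondrial limit of 5%, 160 with TMM scaling, 9 with thinning, 961 with 20 UMIs, 57 with 100 UMIs and 36 at 2-fold. The median of the thin filament list was -0.23 with a mitochondrial limit of 5%, 0.19 with TMM scaling, -0.0099 with thinning and -0.018 with the clusters weighted alike in both libraries. That of the heat shock list was -0.59 with a mitochondrial limit of 5%. Medians of the myosin motor, filament anchor, adhesion, calcium and potassium, receptor, cGMP and cAMP, transcription, matrix, secreted signal, small heat shock and energy lists also changed sign under at least 1 alternative.

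Of 31 named genes past 1.5-fold, 13 stayed past it in the same direction under every alternative that gave a value. With a mitochondrial limit of 5% the log2 ratio turned to 0.22 for Cacnb2, 0.86 for Cdh11, -0.27 for Itga5, 0.48 for Mmd, -2.32 for Ptgs2 and 0.86 for Sgcb. With thinning it turned to -1.09 for Itga3, 0.23 for Mdfic and -1.09 for Mef2d. Ratios under 1.5-fold also changed sign under at least 1 alternative. Among these were Tnc, Cald1, Synm and Cryab, and also Fn1 (lowest -0.02), Kcnj8 (lowest -0.18), Palld (highest 0.04) and Grem1 (highest 0.04). The fold limit was also missed by Actg2 with a mitochondrial limit of 20% (0.50), the mean of per-cell CPM (0.53) and thinning (0.53), by Lamb1 with a limit of 5% (0.02), the equal weighting (0.42), without the richest cell (0.58) and without the cluster led by Notch3 (0.56), by Dnaja1 with 20% (-0.52) and thinning (-0.25), by Cdh11 with 20% (-0.52), by Mef2d with 20% (0.45), by Id4 with 5% (-0.25), 20% (-0.53) and thinning (-0.54), by Igfbp2 with thinning (0.56), by Itga5 with thinning (0.08), and by Ptgs2 with 20% (0.53), per-cell CPM (0.40), thinning (0.23) and equal weighting (0.25). The equal weighting of clusters, leaving out the cluster led by Notch3 and Leiden resolution 1 were chosen after seeing the data. At resolution 1 there were 8 clusters, and 123 of 124 members stayed with the majority of their cluster. Clustered alone, the THC cells gave 4 clusters, with 43 of 57 in their cluster's majority, and the vehicle cells 5, with 51 of 67.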
